A study of Homo sapiens with 6 samples.

Results

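The genes described here encode splicing factors and proteins of the small nuclear ribonucleoprotein particles (snRNPs). They were chosen by symbol alone, as every gene of the deposited table whose name starts with SRSF, HNRNP, SF3A, SF3B, SNRP or PRPF followed by a letter or digit. This gave 68 of 17335 genes, of which 12 belong to the SRSF family, 22 to HNRNP, 3 to SF3A, 6 to SF3B, 12 to SNRP and 13 to PRPF. The RNA came from A549, a long-established line of human lung adenocarcinoma, kept in F12K medium with serum. The cells had been given either the solvent DMSO (3 libraries) or a compound named BRQ in the labels (3 libraries). The series title names a DHODH inhibitor, and BRQ was read as this agent; DHODH sits in mitochondria and makes a precursor of pyrimidine nucleotides. The labels give no dose, exposure time or genetic change in either group, and all 6 libraries come from 1 cell line. The labels do not tell whether a group's libraries were grown separately. The p-values therefore reflect library-to-library spread, and this spread may be technical.

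Splicing removes introns from newly made transcripts. The spliceosome that does this is assembled from snRNPs, each an RNA with a ring of Sm proteins and its own specific proteins. The U1 particle marks the start of the intron and the U2 particle, with its SF3A and SF3B parts, the branch point, before the tri-snRNP of U4, U6 and U5 joins. SR proteins (the SRSF family) mostly bind exons and promote their inclusion, and heterogeneous nuclear ribonucleoproteins (hnRNPs) coat nascent RNA and often oppose inclusion. Many of these proteins limit their own amount through exons whose inclusion sends the transcript to decay. The values here are whole-gene levels and do not separate such transcript forms.

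The library totals behind the values came to 27789225 to 29644462 reads in DMSO and 32195354 to 34908896 reads in BRQ. Pairs of libraries from 1 group had correlations of 0.996 to 0.997 in log2 values over tested genes, and pairs from different groups 0.919 to 0.927. Of 6 epithelial markers all were above the filter, with a summed level of 1230 to 1240 FPKM in DMSO and 1370 to 1470 FPKM in BRQ, whereas the 4 endothelial markers summed to at most 0.267 FPKM in any library. Within the epithelial list the genes moved in opposite directions: KRT7 fell from 577 ± 2.24 to 355 ± 11.8 FPKM, while KRT8, KRT18, KRT19, EPCAM and CDH1 rose (KRT19 from 3.62 ± 0.705 to 30.2 ± 1.95 FPKM). Of 9 alveolar type II markers 6 stayed below 0.5 FPKM in every library, among them the surfactant genes SFTPA1, SFTPA2, SFTPB, SFTPC and SFTPD. The labelled cell type is an alveolar epithelial cell, and its surfactant genes were thus absent or nearly so in both groups. The alveolar list summed to 7.90 to 8.70 FPKM in DMSO and 11 to 11.1 FPKM in BRQ, and 5 fibroblast markers to 1.54 to 2 FPKM in DMSO and to 4.98 to 5.13 FPKM in BRQ. The 4 leukocyte markers summed to 45.5 to 53.2 and 143 to 151 FPKM, nearly all from CD68 (48.7 ± 4.02 and 146 ± 4.38 FPKM; SD, n = 3), while PTPRC and LYZ stayed at or near 0. The part of any other cell type in the results below was not tested.

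Levels are given in FPKM, fragment counts scaled by gene length and by the library's total. Ranks between genes therefore rest on the length used for each gene. In DMSO, SNRPD1 (4858 bases) had 1896 to 2089 reads and SNRPC (806 bases) 1949 to 2115, but their means were 14.5 and 87.5 FPKM. Whether these lengths match the transcripts present was not tested. A log2 fold change is the BRQ mean minus the DMSO mean of log2(FPKM + 0.5), with the standard error (SE) and limma's p-value adjusted by Benjamini-Hochberg over all 12258 tested genes; genes with an adjusted p under 0.05 are called higher or lower. FPKM is a share of each library, and in bulk RNA fewer cells with a transcript and less transcript per cell cannot be told apart. Of the 68 members 66 passed the filter of 0.5 FPKM in at least 3 libraries, each with at least 1 library above it in both groups, and they rested on 46 to 37791 reads per library. HNRNPCL1, an HNRNPC-like gene, had at most 1 read in a library. HNRNPH2, a relative of HNRNPH1, had 1 to 14 reads per library (0.0158, 0.0148 and 0.215 FPKM in DMSO and 0.0266, 0.109 and 0.0251 FPKM in BRQ). Its exons overlap those of the readthrough gene RPL36A-HNRNPH2 on the same strand, so its level is uncertain.

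In BRQ the SF3A, SF3B and PRPF genes were mostly lower, and the SNRP and SRSF genes were divided. Of 20 tested HNRNP genes 8 were higher (40%, against 44.3% of all tested genes), 5 were lower and 7 were not called. Within this family, 4 of the 6 genes of the hnRNP A/B group were higher (66.7%, against 44.3%). Of 66 tested members 19 rose (28.8%, against 44.3% of all tested genes), 33 fell (50%, against 35.4%) and 14 were not called. Together 78.8% were called, close to the 79.7% of all tested genes, so the share of calls does not set the members apart. The groups did not overlap for 55 members (83.3%, against 81.4% of all tested genes). The changes were moderate. The median absolute log2 fold change was 0.35 (all tested genes 0.43), and 5 members (7.58%) changed at least 2-fold, against 15.4% of all tested genes. Fold thresholds here are taken on log2(FPKM + 0.5) and can differ from ratios of mean FPKM. SF3B3 (log2 fold change -0.99, DMSO mean 2.01 times the BRQ mean) is thus not among the 5. At least 1.5-fold rises were called for SNRPA1, HNRNPAB and HNRNPH1 (3 members, 4.55%, against 21.8%). At least 1.5-fold falls were called for 10 members (15.2%, against 14.9%), namely SF3A2, PRPF39, SNRPA, PRPF4, SF3B3, HNRNPL, SRSF4, PRPF6, SF3A1 and PRPF3. SRSF12 (log2 fold change -0.50, DMSO mean 1.61 times the BRQ mean) is not among them on this scale.

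**Figure D1:**
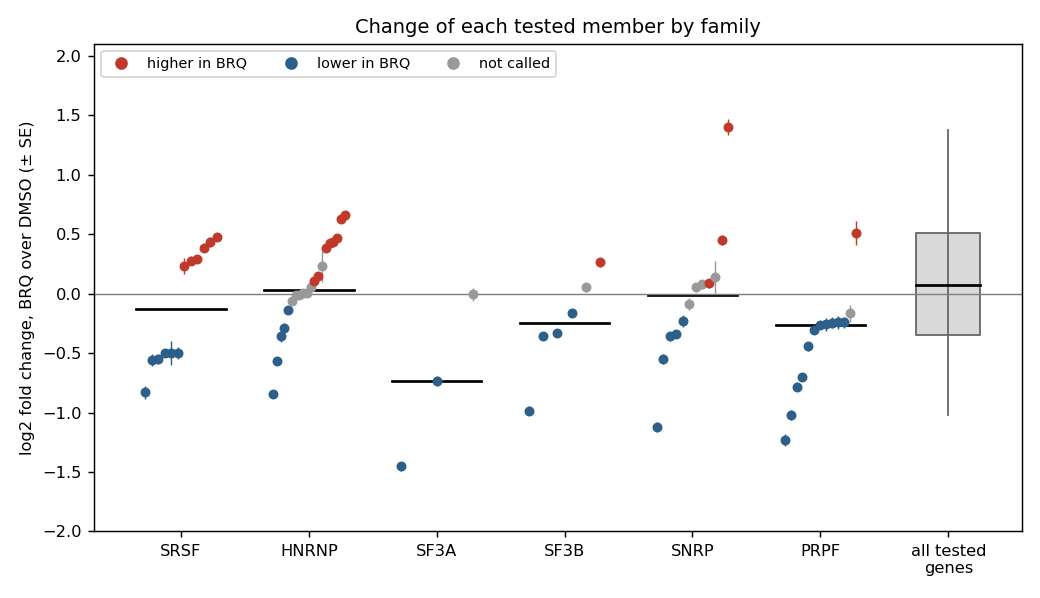
Log2 fold change (BRQ over DMSO) of each of the 66 tested members by family, with SE, coloured by call; black lines are medians, and the box for all tested genes spans the middle 50% with whiskers from the 5th to the 95th percentile. The PRPF points lie below 0 except for PRPF40B, the SRSF points form a raised and a lowered set, and SNRPA1 (1.40) and SF3A2 (-1.45) are the extremes.

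The sequence just upstream of the start site is shown for 6 members that carry these changes: the pair SNRPA1 and SNRPA, which moved in opposite directions, SF3A2 and PRPF6, which fell, and the hnRNP genes HNRNPAB, which rose, and HNRNPL, which fell. They were picked with the values known and not by size of change alone. The sequences are the 150 bases before the RefSeq start (GRCh38.p14, 5′ to 3′ on the gene's own strand), and capitals mark matches to the motifs spelled out further on (CCAAT box, GC box, ETS site and TATA box, on either strand). The windows are chr15:101295249-101295398 (minus strand) for SNRPA1, chr19:40751053-40751202 (plus) for SNRPA, chr19:2236674-2236823 (plus) for SF3A2, chr20:63980982-63981131 (plus) for PRPF6, chr5:178204383-178204532 (plus) for HNRNPAB and chr19:38852348-38852497 (minus) for HNRNPL.
SNRPA1: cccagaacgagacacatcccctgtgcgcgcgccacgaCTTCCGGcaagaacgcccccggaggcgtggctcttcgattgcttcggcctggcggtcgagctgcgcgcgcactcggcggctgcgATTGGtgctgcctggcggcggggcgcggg
SNRPA: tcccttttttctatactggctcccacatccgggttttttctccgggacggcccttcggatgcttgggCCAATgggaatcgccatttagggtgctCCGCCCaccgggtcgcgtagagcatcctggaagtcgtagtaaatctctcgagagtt
SF3A2: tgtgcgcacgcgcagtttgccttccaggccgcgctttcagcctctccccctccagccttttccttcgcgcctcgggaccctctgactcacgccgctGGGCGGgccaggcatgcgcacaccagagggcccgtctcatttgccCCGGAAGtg
PRPF6: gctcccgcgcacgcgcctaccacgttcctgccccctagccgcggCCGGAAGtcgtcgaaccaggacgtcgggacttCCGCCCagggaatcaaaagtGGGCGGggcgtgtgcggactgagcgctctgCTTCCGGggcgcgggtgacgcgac
HNRNPAB: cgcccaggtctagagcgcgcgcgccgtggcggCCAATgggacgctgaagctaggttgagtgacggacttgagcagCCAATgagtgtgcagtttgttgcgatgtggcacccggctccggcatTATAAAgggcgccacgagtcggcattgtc
HNRNPL: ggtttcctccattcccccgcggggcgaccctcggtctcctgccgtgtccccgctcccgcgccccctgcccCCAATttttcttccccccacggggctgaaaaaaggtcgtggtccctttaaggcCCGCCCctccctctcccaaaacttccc

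In the U1 particle, SNRPA, which binds a stem-loop of U1 RNA, stood at 74.8, 77.6 and 75.2 FPKM in the DMSO libraries and at 37.1, 33.1 and 33.6 FPKM in the BRQ libraries. Every BRQ library lay below every DMSO library, and the DMSO mean was 2.19 times the BRQ mean (limma adjusted p = 6.64e-09; log2 fold change -1.12, SE 0.04). SNRPC, which helps U1 hold the 5′ splice site, had 87.5 ± 0.904 and 91.2 ± 2.04 FPKM and was not called (adjusted p = 0.0887). SNRPA shares exon sequence with C19orf54 on the opposite strand. The sources used here do not state if counting used strand.

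In the U2 particle, SNRPA1 moved the other way. The SNRPA1 protein binds U2 RNA together with SNRPB2, and the SNRPA1 transcript stood at 29.1, 30.7 and 36.1 FPKM in DMSO and at 82.3, 86.8 and 85.2 FPKM in BRQ. DMSO replicate 3 was the highest of its group but still far below all BRQ libraries, and the BRQ mean was 2.65 times the DMSO mean (limma adjusted p = 2.26e-08; log2 fold change 1.40, SE 0.07). This was the largest rise among the members. Its partner SNRPB2 had 39.0 ± 0.376 and 41.5 ± 1.31 FPKM; its small rise (0.09, adjusted p = 0.0442) kept its call in 5 of 15 alternatives, and the call ended without DMSO replicate 1 (adjusted p = 0.103), 2 (0.0595) or 3 (0.102) and without BRQ replicate 1 (0.0603) or 3 (0.159). Within libraries, the ratio of SNRPA1 to SNRPB2 was 0.82 ± 0.0983 in DMSO and 2.05 ± 0.0835 in BRQ (SD, n = 3), and that of SNRPA1 to SNRPA was 0.422 ± 0.0510 and 2.46 ± 0.212. These ratios were chosen after the values were seen and were not tested.

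SF3A, a complex of 3 proteins that joins the U2 particle, fell in 2 of its subunits. SF3A2, a zinc finger subunit, stood at 42.3, 43.5 and 42.5 FPKM in DMSO and at 15.6, 15.1 and 15.2 FPKM in BRQ. Its groups were far apart and narrow, and the DMSO mean was 2.80 times the BRQ mean (limma adjusted p = 3.24e-10; log2 fold change -1.45, SE 0.04), the largest fall among the members. SF3A1, the largest subunit and the most abundant in DMSO, went from 44.3, 44.8 and 46.2 FPKM to 25.7, 27.4 and 27.7 FPKM without overlap (log2 fold change -0.73, SE 0.04). SF3A3 had 32.2, 32.2 and 35.7 FPKM in DMSO and 31.7, 35.6 and 32.4 FPKM in BRQ, with overlapping groups (limma adjusted p = 0.918; log2 fold change -0.01, SE 0.06). The order of the levels thus changed from SF3A1, SF3A2 and SF3A3 in DMSO to SF3A3, SF3A1 and SF3A2 in BRQ, and in BRQ no library of 1 subunit overlapped those of the next. SF3A2 shares exon sequence with PLEKHJ1, and SF3A1 with CCDC157, on the opposite strand.

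**Figure D2:**
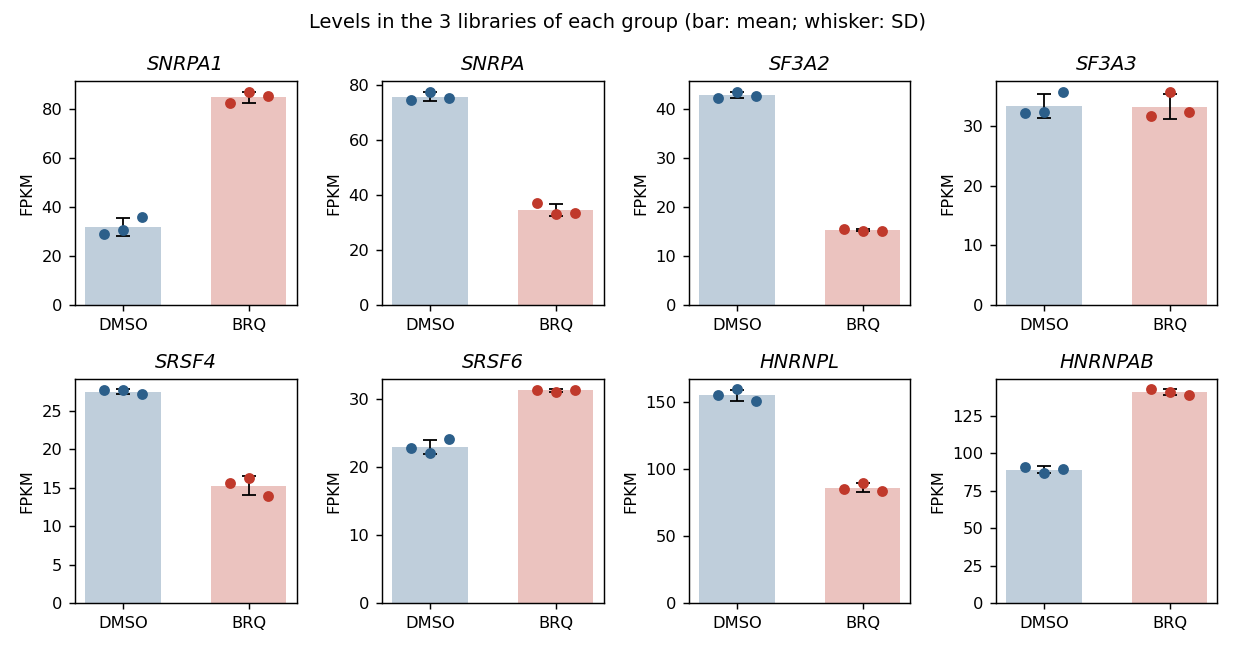
FPKM in each library (points), with the mean (bar) and SD (whisker, n = 3), for 8 members in DMSO and BRQ; each panel has its own axis from 0. SNRPA1, SRSF6 and HNRNPAB are higher in all BRQ libraries, SNRPA, SF3A2, SRSF4 and HNRNPL are lower in all of them, and SF3A3 overlaps.

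SF3B, which holds the branch point helix, fell in its large subunits. SF3B3, a scaffold protein of the complex, stood at 35.2, 36.7 and 34.6 FPKM in DMSO and at 17.9, 17.6 and 17.6 FPKM in BRQ. The groups did not overlap, and the DMSO mean was 2.01 times the BRQ mean (limma adjusted p = 5.48e-09; log2 fold change -0.99, SE 0.04). SF3B1, the protein that clasps the branch point and is often mutated in blood cancers, went from 58.0, 59.4 and 57.0 FPKM to 44.1, 45.0 and 47.1 FPKM (log2 fold change -0.35, SE 0.04). SF3B2 went from 88.7, 90.2 and 94.1 FPKM to 71.1, 73.3 and 72.4 FPKM (-0.33, SE 0.03).

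The small SF3B subunits did not move together. SF3B5 rose from 102.5, 97.9 and 96.2 FPKM to 126, 115 and 116 FPKM (log2 fold change 0.26, SE 0.04), and all BRQ libraries lay above all DMSO libraries. SF3B6, which touches the branch point adenosine and was the most abundant subunit, fell from 189, 183 and 192 FPKM to 172, 162 and 169 FPKM (-0.16, SE 0.03). SF3B4 had 78.7 ± 2.79 and 81.7 ± 3.11 FPKM and was not called (adjusted p = 0.208). In all, 6 of the 9 SF3A and SF3B genes fell (66.7%, against 35.4% of all tested genes) and 1 rose (11.1%, against 44.3%).

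The 8 Sm ring genes, whose proteins circle the snRNA, had a summed level of 809 ± 24.1 FPKM in DMSO and 722 ± 23.5 FPKM in BRQ. Of these genes 4 fell (50%, against 35.4% of all tested genes), 1 rose (12.5%, against 44.3%) and 3 were not called. SNRPB, the most abundant member of all in DMSO, stood at 325, 339 and 343 FPKM in DMSO and at 273, 263 and 261 FPKM in BRQ (log2 fold change -0.34, SE 0.03). SNRPF went from 60.5, 63.8 and 65.5 FPKM to 44.8, 43.6 and 41.0 FPKM (-0.55, SE 0.04). Neither gene's groups overlapped, and SNRPG (-0.36) and SNRPD1 (-0.23) also fell.

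SNRPD3 was the Sm gene that rose, from 15.7, 15.1 and 15.1 FPKM to 21.8, 21.0 and 20.4 FPKM (log2 fold change 0.45, SE 0.04), again without overlap; its exons overlap GGT1 on the same strand. SNRPD2 had 287 ± 10.3 and 303 ± 13.6 FPKM and SNRPE 23.8 ± 0.581 and 22.4 ± 1.62 FPKM, and neither was called. The call of SNRPD2 depended on libraries and method. It was called higher without DMSO replicate 3 (limma adjusted p = 0.0328) or BRQ replicate 3 (0.0401), and with limma-voom on recovered reads (0.0492). SNRPE was called lower without BRQ replicate 2 (0.0138), under median-of-ratios scaling (0.0223) and under quantile normalization (0.0443). SNRPN, the form of SNRPB used in neurons, was low, at 0.572 ± 0.0877 and 0.689 ± 0.197 FPKM (adjusted p = 0.359), and overlaps SNURF. Named pseudogenes are frequent for SNRPG (20 in GENCODE release 29), SNRPC (18) and SNRPE (9), which makes these levels uncertain.

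The PRPF genes, which carry the names of yeast splicing mutants, mostly fell: 11 of 13 fell (84.6%, against 35.4% of all tested genes), PRPF40B rose and PRPF38A was not called (log2 fold change -0.17, adjusted p = 0.0528, called lower in 5 of 15 alternatives). The groups did not overlap for any of the 13, as for 81.4% of all tested genes. The 5 that belong to the tri-snRNP all fell, with a median log2 fold change of -0.70. PRPF4, which binds U4 and U6 RNA, stood at 32.1, 33.3 and 31.5 FPKM in DMSO and at 15.2, 15.3 and 16.4 FPKM in BRQ, a fall of more than 1 log2 unit (limma adjusted p = 1.16e-08; log2 fold change -1.02, SE 0.04). Its partner PRPF3 went from 51.2, 53.6 and 53.3 FPKM to 32.0, 33.0 and 31.6 FPKM (-0.70, SE 0.04). PRPF6, which bridges the U5 and U4/U6 parts, went from 51.3, 53.1 and 53.2 FPKM to 31.8, 29.7 and 29.6 FPKM (-0.78, SE 0.04). The ratio of the BRQ mean to the DMSO mean was 0.485 for PRPF4, 0.578 for PRPF6 and 0.611 for PRPF3.

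PRPF8, the scaffold of the catalytic core and the most abundant PRPF gene, changed less, from 125, 123 and 122 FPKM to 101.8, 107 and 99.4 FPKM (log2 fold change -0.26, SE 0.03), and PRPF31 fell by 0.25. Outside the tri-snRNP, PRPF39, whose yeast counterpart belongs to the U1 particle, stood at 18.7, 19.4 and 18.5 FPKM in DMSO and at 7.74, 7.55 and 7.98 FPKM in BRQ. Its groups were narrow and the DMSO mean was 2.43 times the BRQ mean (limma adjusted p = 4.94e-09; log2 fold change -1.23, SE 0.05). PRPF39 and PRPF4 share exon sequence with opposite-strand genes (FKBP3 and CDC26). Smaller falls were called for PRPF38B (-0.44), PRPF19 (-0.30), a ubiquitin ligase at the centre of a spliceosomal complex, PRPF4B (-0.26), a kinase, and PRPF18 (-0.24), a factor of the second catalytic step, among others. PRPF40B, which was low in both groups, rose from 3.19, 2.65 and 3.27 FPKM to 4.91, 4.73 and 3.97 FPKM (0.51, SE 0.10).

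The SR protein genes were the family in which every member was called, 6 higher and 6 lower, with no overlap between groups for any of the 12. Among all tested genes 79.7% were called and 81.4% did not overlap, so a high count of calls is common in these data. Their summed level was 495 ± 3.81 FPKM in DMSO and 487 ± 9.35 FPKM in BRQ, so the rises and falls came to nearly the same total. SRSF4 fell most, from 27.7, 27.7 and 27.2 FPKM to 15.7, 16.3 and 13.9 FPKM (limma adjusted p = 2.68e-07; log2 fold change -0.83, SE 0.06). SRSF2, which binds exonic enhancers, went from 92.2, 92.1 and 90.2 FPKM to 65.6, 63.6 and 58.6 FPKM (-0.55, SE 0.04). SRSF1, which also acts in export and translation of messenger RNA, went from 90.5, 90.1 and 90.1 FPKM to 62.7, 66.3 and 61.8 FPKM (-0.50, SE 0.03). Both stood close to each other in each group.

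SRSF11, an SR-related protein, went from 20.2, 20.9 and 18.7 FPKM to 13.8, 12.8 and 13.4 FPKM (log2 fold change -0.56, SE 0.05). SRSF10, a repressor of splicing when dephosphorylated, fell by 0.50 and its relative SRSF12 by 0.50 on the log2 scale, the latter from 1.65 ± 0.152 to 1.02 ± 0.115 FPKM. All 3 of SRSF10, SRSF11 and SRSF12 were therefore lower, as were 35.4% of all tested genes. Of SRSF1 to SRSF9 6 were higher (66.7%, against 44.3% of all tested genes) and 3 lower (33.3%). SRSF2 and SRSF9 share exon sequence with MFSD11 and GATC on the opposite strand.

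Among the rising SR genes, SRSF9 was the most abundant, at 85.4, 86.7 and 91.3 FPKM in DMSO and at 108, 109.6 and 106 FPKM in BRQ (log2 fold change 0.29, SE 0.03). SRSF3, the smallest SR protein, rose from 40.5, 39.9 and 39.6 FPKM to 56.0, 56.8 and 55.3 FPKM (0.48, SE 0.03), the largest rise of the family. SRSF6 (0.44), SRSF5 (0.39), SRSF7 (0.28) and SRSF8 (0.23), a relative of SRSF2, rose as well. SRSF4, SRSF5 and SRSF6 are close relatives, and SRSF4 moved against the other pair. The ratio of SRSF6 to SRSF4 within a library was 0.837 ± 0.0459 in DMSO and 2.06 ± 0.178 in BRQ, and that of SRSF3 to SRSF1 was 0.444 ± 0.00391 and 0.882 ± 0.0223 (SD, n = 3; chosen after the values were seen and not tested).

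**Figure D3:**
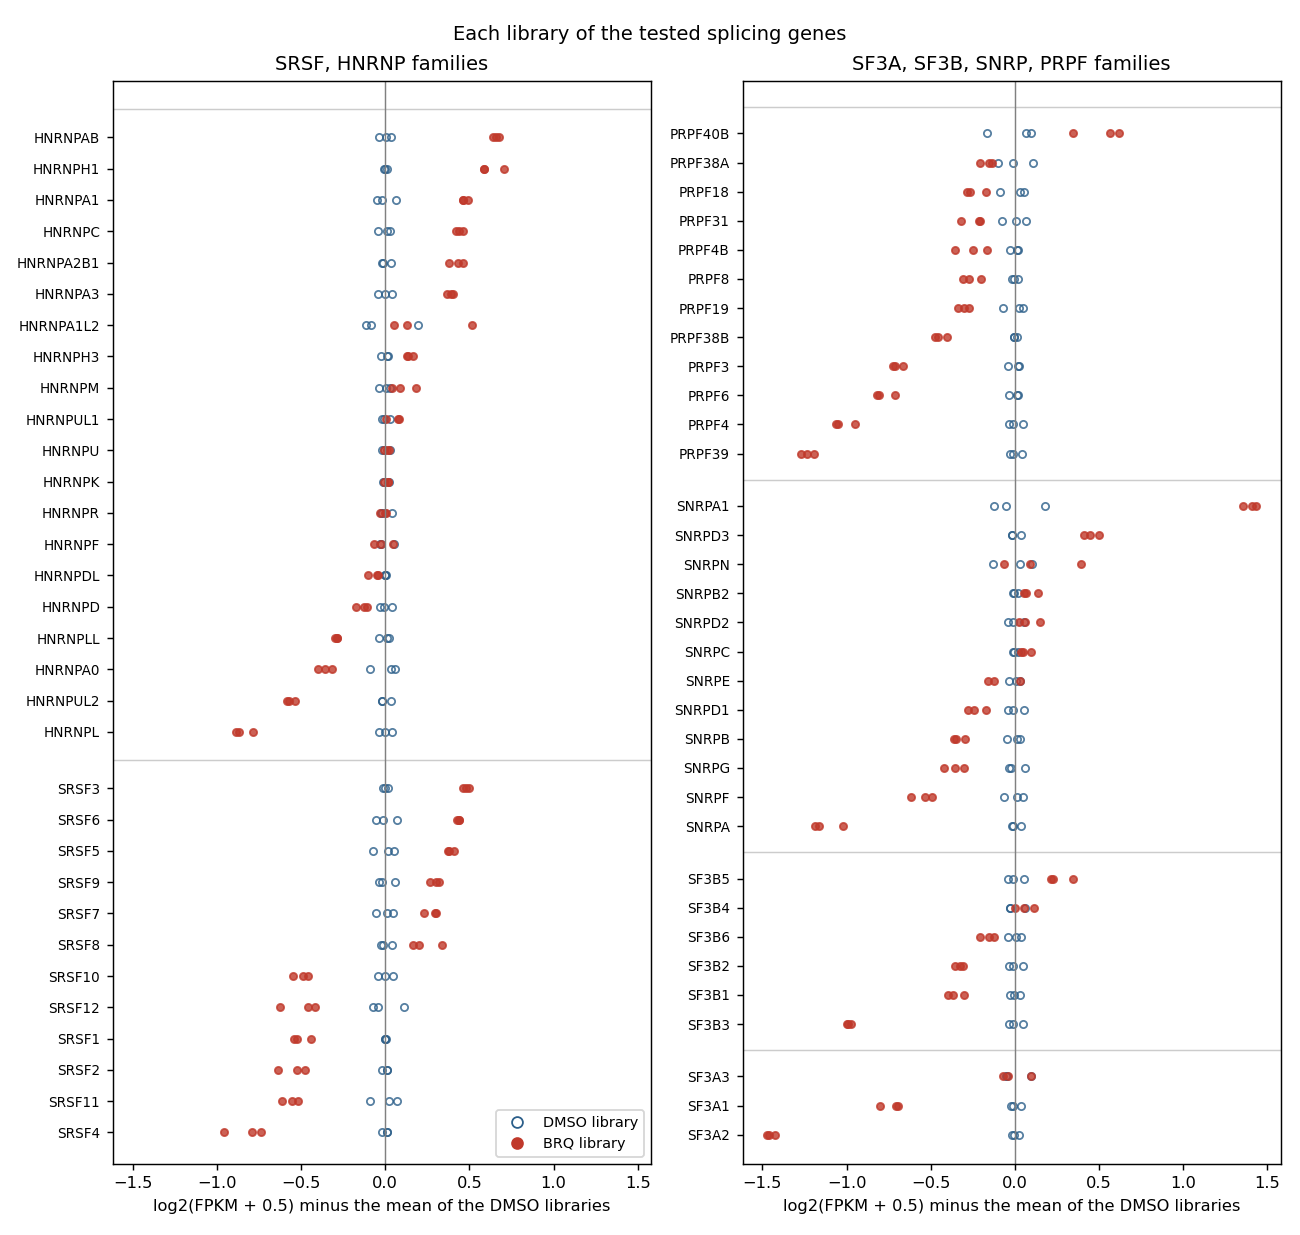
Each library of 65 of the 66 tested members, as log2(FPKM + 0.5) minus the mean of the 3 DMSO libraries; open circles are DMSO and filled circles BRQ libraries, and genes are ordered by change within a family. The open circles lie near 0, and the filled circles of SRSF4, HNRNPL, SF3A2, SNRPA and PRPF39 lie at the left of their family and those of SNRPA1, HNRNPAB and SRSF3 at the right.

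Of 20 tested hnRNP genes 8 rose (40%, against 44.3% of all tested genes), 5 fell (25%, against 35.4%) and 7 were not called. Neither share stood above that of all tested genes. Their summed level went from 1896 ± 19.9 FPKM in DMSO to 2144 ± 24.2 FPKM in BRQ, and that of the 6 genes of the A/B group, several of which bind exonic silencers, was 551 ± 11.3 and 752 ± 12.0 FPKM. HNRNPA2B1, the most abundant hnRNP gene, stood at 225, 232 and 223 FPKM in DMSO and at 306, 313 and 295 FPKM in BRQ (limma adjusted p = 4.27e-07; log2 fold change 0.43, SE 0.03). HNRNPAB rose most, from 91.2, 87.0 and 89.4 FPKM to 143, 141 and 139 FPKM (0.66, SE 0.03, limma adjusted p = 1.42e-08). Both genes had every BRQ library above every DMSO library. HNRNPA1 (0.47) and HNRNPA3 (0.39) rose too, while HNRNPA0, a gene without introns in the same group, fell by 0.36. HNRNPA1 has 74 named pseudogenes in GENCODE release 29 and HNRNPA3 has 16. HNRNPA1L2, a retrotransposed copy of HNRNPA1, had 1.89, 2.47 and 1.94 FPKM in DMSO and 2.18, 2.32 and 3.19 FPKM in BRQ and was not called (adjusted p = 0.132; 0.0487 without DMSO replicate 2).

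Among the other hnRNP genes, HNRNPH1, whose protein binds runs of G, rose from 123, 125 and 123 FPKM to 186, 202 and 186 FPKM (log2 fold change 0.63, SE 0.04). Its relative HNRNPF had 86.2 ± 2.64 and 85.3 ± 3.29 FPKM and was not called (adjusted p = 0.711). HNRNPC, which binds U tracts, rose by 0.44 to 206 ± 3.02 FPKM, and HNRNPH3 by 0.15. HNRNPM was called higher at 0.10 (limma adjusted p = 0.0346), but kept this call in only 7 of 15 alternatives. The call ended without DMSO replicate 2 (0.0579) or 3 (0.108) or BRQ replicate 1 (0.0552) or 2 (0.118). It also ended with all genes unfiltered (0.0583) and with no trend (0.1).

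HNRNPL, which binds CA repeats, went the other way, from 155, 159.7 and 151 FPKM to 84.9, 89.9 and 84.0 FPKM. This was the deepest fall among the hnRNP genes, with no overlap (limma adjusted p = 8.81e-09; log2 fold change -0.85, SE 0.04). Its paralogue HNRNPLL fell by 0.29, to 14.7 ± 0.0614 FPKM. HNRNPUL2 went from 49.0, 48.8 and 50.8 FPKM to 34.1, 32.9 and 33.1 FPKM (-0.56, SE 0.03), and its exons overlap the readthrough gene HNRNPUL2-BSCL2. HNRNPD, which binds AU-rich elements in messenger RNA, fell by 0.14. The abundant gene HNRNPK, which binds C-rich RNA, was not called, at 220.4 ± 2.95 and 222 ± 1.72 FPKM. Nor was HNRNPU, which binds chromatin and RNA, at 112 ± 2.13 and 113 ± 1.01 FPKM. The less abundant HNRNPR, at 34.6 ± 0.890 and 34.4 ± 0.463 FPKM, was not called. HNRNPDL (-0.06) and HNRNPUL1 (0.06; adjusted p = 0.0386 without BRQ replicate 2) were not called either. Under quantile normalization HNRNPK, HNRNPU and HNRNPF (each with a log2 fold change of -0.11) and HNRNPDL (-0.16, adjusted p = 0.00101) were called lower, and HNRNPDL also under median-of-ratios scaling (-0.13).

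By level, the 4 most abundant members in DMSO were SNRPB (336 ± 9.09 FPKM), SNRPD2 (287 ± 10.3), HNRNPA2B1 (227 ± 4.69) and HNRNPK (220.4 ± 2.95). HNRNPA2B1 and HNRNPK could not be separated there, with libraries from 223 to 232 and from 218 to 224 FPKM. In BRQ the same 4 genes were in the order HNRNPA2B1 (305 ± 9.08 FPKM), SNRPD2 (303 ± 13.6), SNRPB (266 ± 6.42) and HNRNPK (222 ± 1.72), and the libraries of HNRNPA2B1 and SNRPD2 overlapped. The lowest tested members were SNRPN and SRSF12. The median tested member stood at 49.4 FPKM, against 8.02 FPKM over all tested genes.

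**Figure D4:**
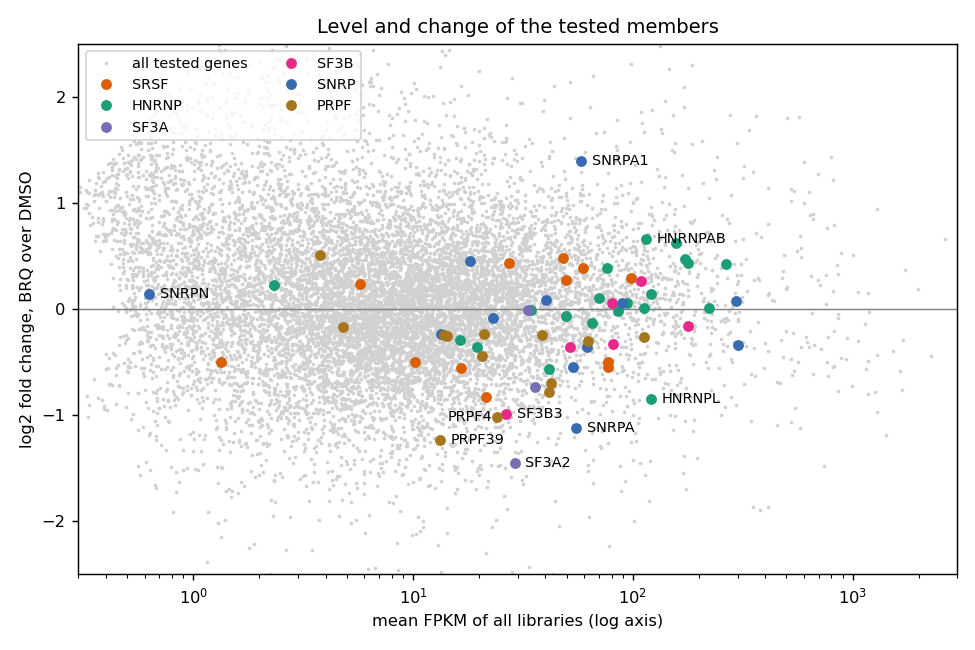
Mean FPKM over all libraries (log axis) against the log2 fold change for all tested genes (grey; the vertical axis ends at 2.5) and the members, coloured by family. Most members lie to the right of the grey cloud's middle, with hnRNP genes above 100 FPKM at or above 0 except for HNRNPL, and PRPF genes mostly below 0.

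Some features that the choice by symbol did not use were set beside the calls. The members' genes are compact, with a median genomic span of 16.0 kb among tested members against 29.8 kb over all tested genes, and a range of 0.690 kb (SF3B5) to 155 kb (SNRPN). Across all tested genes the median log2 fold change went from 0.20 for spans under 10 kb to -0.17 for spans of 100 kb or more. Members under 10 kb (17 genes) had a median of 0.08, those of 10 to 20 kb (23 genes) of -0.25 and those of 20 to 50 kb (20 genes) of -0.24, where all tested genes had 0.15 and 0.09 in the last 2 classes. The part of span in the members' changes was not tested. Exons of 18 members overlap a coding gene on the opposite strand and those of 8 members one on the same strand, which makes the values of these members less certain. Besides those named above, they include HNRNPL, SNRPB and SRSF1 on the same strand. On the opposite strand they include HNRNPAB (with PHYKPL) and HNRNPA2B1 (with CBX3).

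The promoter windows, from 250 bases before to 50 after the start, were found for 61 of the 68 members. They were searched on both strands for 7 motifs by exact letters. The CCAAT box was searched by its own letters, the GC box as GGGCGG and the E-box of basic helix-loop-helix proteins as CACGTG. The TATA box was searched as TATAAA and the site of the ETS family of transcription factors as CCGGAAG. The remaining motifs were the site of YY1, searched as AAGATGGC, and a palindrome bound by NRF1. None of these sets of letters contains another. The ETS letters stood in 12 of 27 windows of members that fell (44.4%), in 3 of 18 that rose (16.7%) and in 6 of 14 that were not called (42.9%), against 19.7% of 10058 windows of tested genes and 10.7% of all 27305 windows in the table. By family they stood in 3 of 3 SF3A, 3 of 5 SF3B and 7 of 11 SNRP windows (63.6%), but in 3 of 10 PRPF, 2 of 11 SRSF (18.2%) and 3 of 21 HNRNP windows (14.3%). The SF3A, SF3B, SNRP and PRPF windows together had them in 16 of 29 (55.2%), and the SRSF and HNRNP windows in 5 of 32 (15.6%). Calls differ by family as well, so the shares by call cannot be told apart from those by family. In the sequences above they occur in SNRPA1, which rose, and in SF3A2 and PRPF6, which fell, and PRPF6 has them on each strand. The window of PRPF4, which fell more than PRPF6 and is not shown, does not have them.

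CCAAT stood in 10 of 18 windows of members that rose (55.6%), in 11 of 27 of those that fell (40.7%) and in 5 of 14 of those not called (35.7%). The shares were 36.6% of windows of tested genes and 35.7% of all windows. By family it stood in 14 of 21 HNRNP (66.7%) and 7 of 10 PRPF windows, and in 2 of 11 SRSF windows (18.2%). HNRNPAB has it on the shown stretch at a pair of places, and SNRPA1, SNRPA and HNRNPL have it there as well. GC boxes were found in 62.3% of member windows and in 70.8% of those of tested genes (44.6% of all). The E-box letters stood in 8 member windows (13.1%; 10.3% of tested genes, 7.43% of all), TATAAA in 7 (11.5%; 5.70% and 12.0%), the YY1 letters in 4 (6.56%; 5.52% and 3.03%) and the NRF1 palindrome in none of the 61 (2.30% and 1.36%). A match of letters is a description of the sequence, and no binding was measured.

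Splicing genes outside the 6 families were taken from 9 lists by function. U5 and tri-snRNP partners fell in 13 of 19 cases and rose in 4, led by SART3 (log2 fold change -1.23), which recycles U4 and U6 particles, and LSM6 (-0.92), of the ring on U6 RNA, with LSM8 (0.31) and LSM2 (0.24) among those that rose. U1 and U2 partners fell in 11 of 17 cases and rose in 4, with the helicase DHX15 (-0.61) lower and SNRNP70 (0.29), the U1 protein whose symbol lies outside the naming rule, and the helicase DDX46 (0.38) higher. SR-related proteins fell in 14 of 19 cases and rose in 3, with RSRC2 (-1.34) and SRRM1 (-0.99) lower and RNPS1 (0.38) and PNN (0.34) higher. Over all tested genes 35.4% were called lower and 44.3% higher, and the counts of the lists below are to be read against the same shares.

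Kinases and import of SR proteins fell in 6 of 8 cases (75%) and rose in 1 (12.5%). The kinase SRPK2 fell from 33.9 ± 0.738 to 13.0 ± 0.139 FPKM (log2 fold change -1.34), while its paralogue SRPK1 rose from 21.1 ± 0.268 to 34.2 ± 0.273 FPKM (0.68), and the nuclear kinase CLK4 fell by 0.71. In the exon junction complex list 8 of 11 genes fell (72.7%) and 3 rose (27.3%). MAGOHB, a core subunit, went from 8.45 ± 0.644 to 2.03 ± 0.153 FPKM (-1.82) and UPF3B, of nonsense-mediated decay, to 12.1 ± 1.13 FPKM (-1.28), while EIF4A3, the complex's helicase, rose from 45.5 ± 1.14 to 76.0 ± 4.77 FPKM (0.73) and CASC3 by 0.67.

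Of 36 other regulators of alternative splicing 21 fell and 12 rose, with PTBP2 (-1.57) and MBNL1 (-1.35) lower and KHDRBS3 (1.15) and PSPC1 (1.05) higher. Genes of the PRPF19 complex and the catalytic steps fell in 10 and rose in 9 of 21 cases, with CTNNBL1 (-1.21) and CWC22 (-0.68) lower and BCAS2 (0.77) and CWC15 (0.37) higher. snRNP assembly and snRNA maturation genes fell in 9 and rose in 5 of 22 cases, with TOE1 (-1.10), an snRNA trimming enzyme, and WDR77 (-0.79), a methylosome subunit, lower and SNUPN (1.11), the import adaptor of snRNPs, and GEMIN2 (0.32) higher. Of 10 tested genes of the minor spliceosome, which removes a rare class of introns, 6 rose and 2 fell, with SNRNP25 going from 8.38 ± 0.767 to 17.0 ± 1.85 FPKM (0.98), ZCRB1 higher (0.50) and ARMC7 (-0.95) and CENATAC (-0.25) lower. In the deposited annotation's KEGG spliceosome term without the members, a set added after values were seen, 46 of 83 tested genes fell (55.4%) and 29 rose (34.9%).

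**Figure D5:**
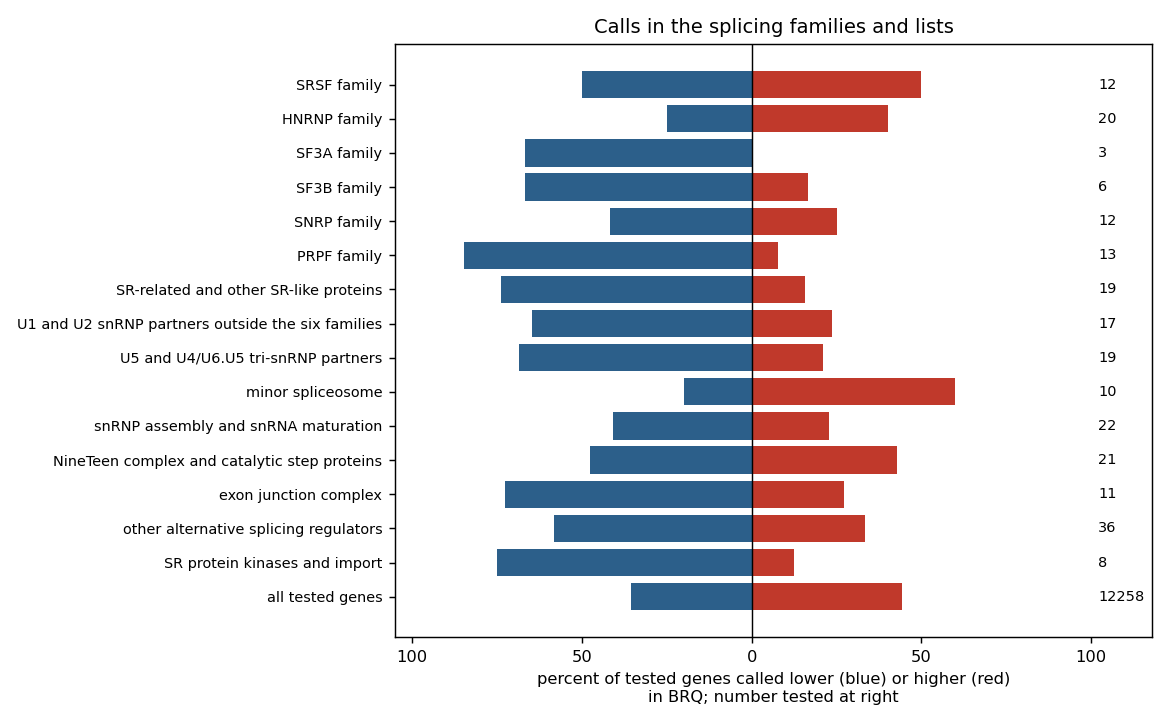
Percent of tested genes called lower (bars to the left) or higher (bars to the right) in BRQ for the 6 families, 9 other splicing lists and all tested genes, with the number tested at the right. The PRPF family has the longest bar to the left (84.6%) and the minor spliceosome list the longest to the right (60.0%), where all tested genes have 35.4% and 44.3%.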

How the data were processed

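RNA of 3 DMSO and 3 BRQ libraries of A549 cells was sequenced. The authors deposited 1 table of FPKM values for 17335 genes with Entrez IDs; fastp, HTSeq and hg38 are named in the submitters' processing notes; aligner, annotation and strand setting: not given in the sources used here. Column names abbreviate the sample titles (BR or DM and the replicate number), and 0 value columns were left unmapped. From the steps between low values, gene lengths and library totals were solved jointly, and every one of the 17335 genes then came out as whole reads (tolerance 0.01 read). Reads served for depth and 1 alternative.

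log2(FPKM + 0.5) was fitted with limma 3.58.1 (R 4.3.3; eBayes with trend, group as the only term, two-sided p-values) over the 12258 genes reaching 0.5 FPKM in 3 or more libraries. The pseudocount understates changes of low genes. The fit was tried on simulated data for BRQ against DMSO (12101 genes). It found 32% of 50 genes given a 1.25-fold change, 98% of 50 given a 1.5-fold change and 100% of 50 given a 2-fold one. Of 176 calls 11 were false. The simulation changed only a small part of the genes, left out those with few reads and assumed the spread between libraries. In the data 79.7% of tested genes were called, so these shares are not the power or error rate of the data. Members and lists were chosen with earlier results of these data known, so members' counts carry no test of their own. Values per library are given for the 4 called members of each family with the largest change and a mean of at least 1 FPKM, and for its most abundant member; SF3A3, SRSF3, PRPF40B, HNRNPA1L2 and HNRNPH2 were added after their values were seen, and up to 2 genes per direction are named from each other list. A few genes are counted but not reported here by name. Coordinates, spans and promoters come from RefSeq (GRCh38.p14, matched by Entrez ID for all 68 members), and exon overlaps and pseudogene names from GENCODE release 29. The alternatives tried were a pseudocount of 0.1 or of 1, all genes unfiltered, genes averaging 1 FPKM or more, median-of-ratios scaling, quantile normalization, no trend, the replicate block, limma-voom on recovered reads and leaving out each library. Python 3.11.15 with pandas 2.3.3 and matplotlib 3.10.9 was used for the rest.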

Additional observations from a re-analysis of the deposited data

How the results depend on the processing

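The number of members called higher was 19 and ran from 16 to 19 over the 15 alternatives, and the number called lower was 33 and ran from 33 to 39. Leaving out each library gave 17 to 19 higher and 33 to 34 lower. Over all genes, 5191 to 5288 were higher and 4185 to 4225 lower when a library was left out (5425 and 4343 with all). Median-of-ratios scaling gave 4878 higher and 4843 lower, and quantile normalization 4713 and 4959; among the members these gave 17 and 36, and 16 and 39. Of the 66 tested members 54 kept their call in every alternative run for them. Quantile normalization turned HNRNPK (log2 fold change -0.11, adjusted p = 0.00130) and HNRNPU (-0.11, 0.00502) from no call to lower, as it did HNRNPDL (0.00101), HNRNPF (0.0171), PRPF38A (0.0186) and SNRPE (0.0443), and ended the call of HNRNPH3 (0.533); the cause was not tested. The calls of HNRNPM and SNRPB2 ended under quantile normalization (adjusted p = 0.882 and 0.463) and median-of-ratios scaling (0.465 and 0.670), and the latter turned HNRNPDL (0.00360), PRPF38A (0.0117) and SNRPE (0.0223) to lower. The replicate block left 5351 genes higher and 4278 lower, with 18 and 33 members; it ended the call of SNRPB2 (0.0711) and of no other member. Deviations of libraries with the same number correlated at -0.0235, -0.00831 and -0.0378, so the numbers were not taken as pairs. Small changes are at the limit of what 3 libraries per group can show.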
